A study of Homo sapiens with 6 samples.

Results

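Small nucleolar RNA (snoRNA) host transcripts and microRNA host transcripts were followed in HaCaT, a human epidermal keratinocyte line that became immortal spontaneously, kept under negative or ambient pressure. A probe set, the array's group of short probes for 1 transcript region, was a member if the platform's symbol field named an SNHG gene, a MIR or LET7 gene ending in HG, or GAS5, ZFAS1, DANCR, EPB41L4A-AS1, NEAT1 or MALAT1. MIR205HG was left out of the members. The rule gave 162 of 54613 probe sets, for 78 of the 21357 genes that the platform names: 57 probe sets of 28 snoRNA hosts, 84 of 48 microRNA hosts, and 21 of the long nuclear RNAs NEAT1 (9) and MALAT1 (12). Of the 162, 90 named the host alone, 58 named it together with small RNA genes it carries, and 14 also named another gene, 9 of them SNHG4 together with MATR3.

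The study, whose title concerns the loss of adherens junctions under negative pressure, hybridised total RNA of 6 cultures, 1 array each. In the 3 treated cultures an incubator held a negative pressure gradient of 125 mmHg for 12 h, and the 3 control cultures stayed at ambient pressure for the same 12 h. All were unmodified HaCaT cells in serum-containing medium, labelled as biological replicates, and HaCaT is 1 immortalised line. No label says that same-numbered cultures shared a day. Values are log2 signals, so a difference of 1 is a doubling, and levels of different probe sets cannot be compared with each other.

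A host transcript is a long RNA whose introns or exons carry smaller RNAs. In snoRNA hosts the snoRNAs lie in introns, are freed as the introns are trimmed, and guide chemical modification of ribosomal RNA, while many of the spliced hosts are short-lived because nonsense-mediated decay removes them. In microRNA hosts a hairpin is cut out by the Microprocessor complex and matured by Dicer into a microRNA that represses messenger RNAs through its seed. NEAT1 is the scaffold of paraspeckles and MALAT1 lies in nuclear speckles. The probe sets are named for the hosts, and the levels of the mature microRNAs are not given by them.

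The mature microRNAs of MIR22HG are shown first because its probe set was the member past the threshold. Bases 2 to 8, the seed, are in capitals, in the RefSeq sequences of GRCh38.p14. The microRNA gene lies inside the host on the minus strand of chromosome 17, with miR-22-3p at chr17:1713914-1713935.
hsa-miR-22-3p: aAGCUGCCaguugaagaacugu
hsa-miR-22-5p: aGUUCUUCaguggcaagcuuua
No other mature microRNA in the human table shared the seed of either.

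Start regions are shown for SNHG16, SNHG19, SNHG1 and GAS5, the snoRNA hosts with the smallest p-values. Each line gives 40 bases before and 40 bases from the annotated start (RefSeq, GRCh38.p14), in the sense of the gene. Capitals mark a start tract, defined here as a C followed by at least 4 C or T, with its C within 5 bases of the annotated start. Such tracts are the mark of 5'TOP transcripts, a class that also holds the messenger RNAs of ribosomal proteins. The windows are chr17:76557724-76557803 on the plus strand for SNHG16, and on the minus strand chr16:2155319-2155398 for SNHG19, chr11:62855846-62855925 for SNHG1 and chr1:173869006-173869085 for GAS5.
SNHG16: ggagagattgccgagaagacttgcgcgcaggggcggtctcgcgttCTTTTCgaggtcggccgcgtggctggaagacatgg
SNHG19: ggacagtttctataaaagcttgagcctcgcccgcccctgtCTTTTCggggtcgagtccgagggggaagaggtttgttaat
SNHG1: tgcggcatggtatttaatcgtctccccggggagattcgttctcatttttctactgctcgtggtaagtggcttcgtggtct
GAS5: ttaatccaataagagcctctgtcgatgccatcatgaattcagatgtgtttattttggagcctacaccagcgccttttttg
SNHG16 and SNHG19 hold the tract and SNHG1 and GAS5 do not. Of the 24 snoRNA hosts with a sequence in the table, 12 (50%) held it, against 8 of 36 microRNA hosts (22.2%) and 5749 of 27305 genes in all (21.1%). On either strand of the 300-base promoter sequences, the letters TATAAA occurred in 4 of the 24 snoRNA hosts (16.7%) and in 12.0% of all genes, and CACGTG occurred in 1 (4.17%) and in 7.43% of all. A match describes the letters only, and none at the annotated start does not exclude a tract at another start. Under negative pressure SNHG16 differed by -0.59 on 1 set and -0.09 on the other, and SNHG19 by 0.59 (described below with their tests). Whether the tract bears on these differences was not tested.

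The arrays of replicate 3 stood apart from the other 4 on the first principal component of all probe sets (40.4% of the variance), while the second (28.8%) separated the pressures. Pearson's r between arrays of a group, across probe sets, lay between 0.989 and 0.997. The keratinocyte label was checked with 5 measured markers, each above the median probe set mean. Above it also lay 2 of 6 fibroblast, 2 of 4 melanocyte, 2 of 4 leukocyte and 3 of 4 endothelial markers. Probe sets differ in brightness, so these counts are a rough description. In cultures, fewer cells and less RNA per cell cannot be told apart.

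Most host transcripts differed little between the pressures. One member passed limma's test at a Benjamini-Hochberg adjusted p under 0.05 over all 54613 probe sets (0.617% of members), against 0.48% of all probe sets (262; 0.276% higher and 0.203% lower), and 161 members did not pass. The member was MIR22HG, and it fell. At an unadjusted p under 0.05 there were 15 members (9.26%), 8 higher and 7 lower, against 9.86% of all probe sets (5.55% and 4.31%). The median difference, negative minus ambient pressure, was 0.03 over the members and 0.01 over all probe sets, and 155 of the 162 members lay within 0.5 of 0. The groups did not overlap in 22 members (13.6%), 15 higher and 7 lower, against 15% of all probe sets (8.44% and 6.56%). These shares lie close to or below those of the whole array.

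Same-numbered arrays deviated together (r of 0.22, 0.23 and 0.47), but ambient replicate 1 deviated more with negative pressure replicate 2 (0.36), so pairing of replicates 1 and 2 beyond the offset of replicate 3 is not shown. A fit with the replicate number as a block called 6 members (3.7%), against 2.27% of all probe sets (1.15% higher and 1.12% lower). They were MIR22HG, GAS5 and SNHG16, which were lower, and SNHG19, MIR570HG and MIR550A3HG, which were higher. The block adds no new difference. It removes the spread that arrays of 1 number share, and the values of each of the 6 are given below with both adjusted p-values.

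**Figure D1:**
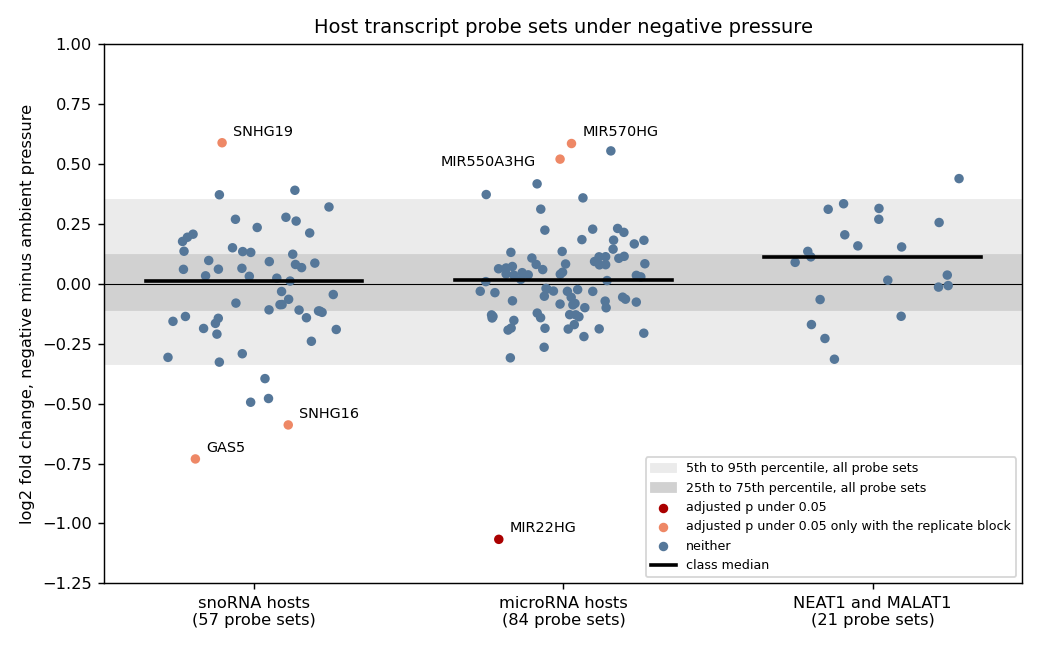
The vertical axis is the log2 fold change, negative minus ambient pressure, of each of the 162 probe sets by class, with the class median as a bar and percentile bands of all 54613 probe sets in grey. The medians of 0.01, 0.02 and 0.11 lie near 0, and MIR22HG at -1.07 stands lowest.

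MIR22HG, the host of miR-22, was the member that changed most. Its probe set 214696_at, which also names MIR22, read 6.65, 6.80 and 6.44 in ambient replicates 1, 2 and 3, and 5.56, 5.74 and 5.41 in negative pressure replicates 1, 2 and 3. All 3 treated arrays lay below all 3 controls. The log2 difference was -1.07 ± 0.14 (SE), a fold of 2.09, with a 95% interval of -1.38 to -0.75 and an adjusted p of 0.0253, or 0.00296 with the block. Between same-numbered arrays it was -1.10, -1.07 and -1.03, so the replicate 3 pair differed like the others. The call ended without ambient replicate 1 (adjusted p 0.130), ambient replicate 2 (0.158), negative pressure replicate 1 (0.113) or negative pressure replicate 2 (0.114), while the difference stayed between -1.16 and -0.98. Without both replicate 3 arrays it was -1.08 with an adjusted p of 0.0172.

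GAS5, a growth-arrest transcript that carries 11 snoRNAs in the RefSeq table, gave different answers by probe set. Probe set 228238_at read 7.96, 8.18 and 7.41 in the ambient arrays and 6.92, 7.43 and 7.0 in the treated arrays. Each treated array lay below its same-numbered control, but the groups overlapped, since negative pressure replicate 2 stood level with ambient replicate 3. The difference was -0.73 ± 0.21 (SE), with an adjusted p of 0.228, or 0.0294 with the block. The brightest GAS5 set, 224841_x_at, read 10.11, 10.25 and 10.14 at ambient and 10.32, 10.25 and 10.34 under negative pressure, a difference of 0.13 ± 0.11 (SE) with an adjusted p of 0.818. Negative pressure replicate 2 read like its control, and the groups overlapped.

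The other 3 GAS5 sets split the same way, and they are named here after their values were seen. Set 227517_s_at differed by -0.49 (adjusted p 0.457, or 0.0719 with the block) and 1560402_at, a set below the median mean, by -0.48 (0.271, or 0.0858). Set 224741_x_at differed by 0.14 (0.825). The suffix x marks sets with some probes that resemble other sequences, and the suffix s marks sets shared by several transcripts. The log2 ratio of 228238_at to 224841_x_at was -2.14, -2.07 and -2.74 in the ambient arrays and -3.39, -2.82 and -3.33 in the treated arrays. Every treated array lay lower, with a difference of -0.86 and an exact two-sided permutation p of 0.1, the smallest that 3 arrays against 3 can give. This pair was chosen after the sets were seen to differ, so the ratio describes that split and is no separate evidence of it.

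SNHG16, the host of SNORD1A, SNORD1B and SNORD1C, showed a like split between its probe sets. Set 224603_at read 9.55, 9.70 and 9.62 in the ambient arrays and 9.22, 9.07 and 8.81 in the treated arrays. All treated arrays were lower, by 0.33, 0.63 and 0.81 between same-numbered arrays. The difference was -0.59 ± 0.13 (SE), with an adjusted p of 0.121, or 0.0475 with the block. Set 224601_at read 8.34, 8.44 and 8.49 against 8.30, 8.22 and 8.49, a difference of -0.09 ± 0.12 (SE) with an adjusted p of 0.914. The log2 ratio of the first set to the second was 1.21, 1.26 and 1.14 in the ambient arrays and 0.92, 0.85 and 0.33 in the treated arrays. It differed by -0.50, most in replicate 3, with an exact permutation p of 0.1, the smallest possible here. This gene was chosen after its sets were seen to differ, so the ratio is no separate evidence of the split.

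SNHG19 and SNHG1 had the smallest p-values among the snoRNA hosts with higher treated values. SNHG19 carries SNORD60, and its set 228049_x_at read 6.84, 6.84 and 6.50 at ambient and 7.45, 7.41 and 7.09 under negative pressure. The differences between same-numbered arrays were 0.61, 0.56 and 0.59, so replicate 3 was lower in both groups by a similar step. The difference of 0.59 ± 0.15 (SE) had an adjusted p of 0.167, or 0.0280 with the block. SNHG1, which carries 8 snoRNAs, read 9.38, 9.42 and 9.39 against 9.80, 9.74 and 9.81 on set 224610_at. Its groups did not overlap and its SDs were 0.02 and 0.04 (n = 3), yet the difference of 0.39 ± 0.11 (SE) had an adjusted p of 0.190, and 0.112 with the block. The model's SE is larger than those SDs give because limma draws each spread towards that of all probe sets.

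**Figure D2:**
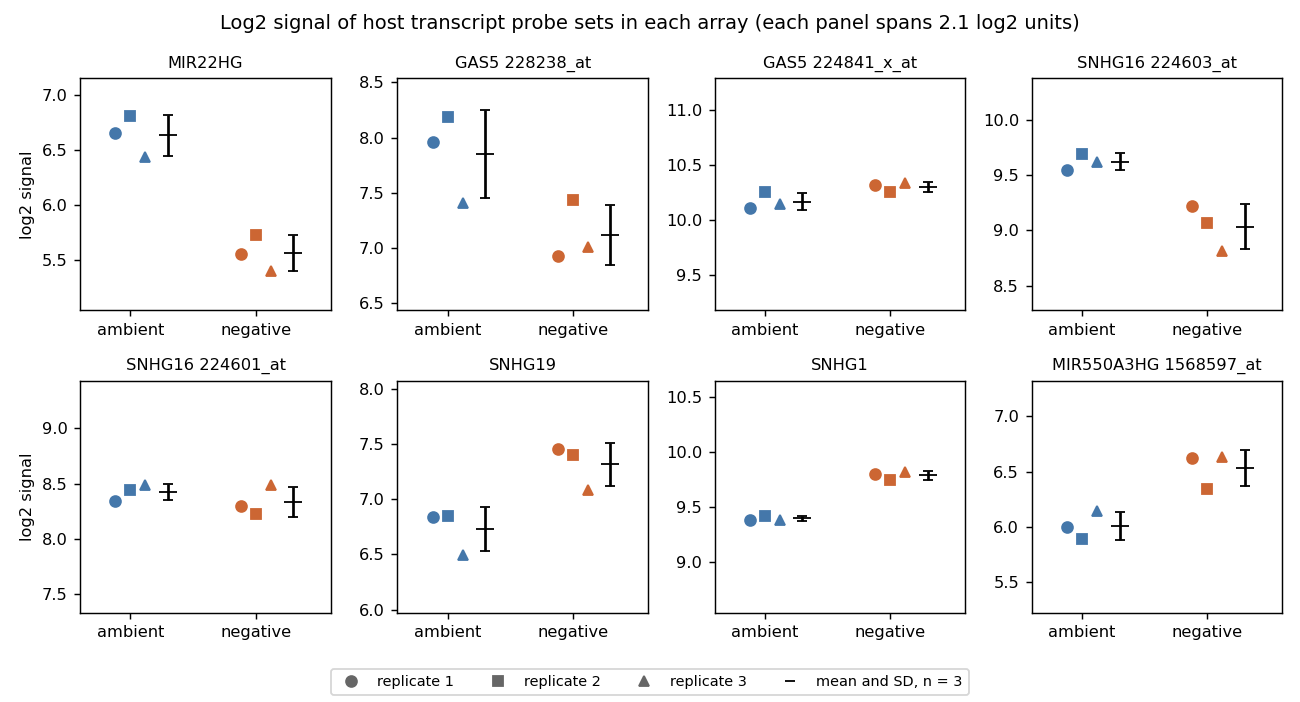
Each panel plots the log2 signal of 1 host probe set in the 6 arrays, by pressure, with the replicate as symbol and the mean ± SD (n = 3) beside it. MIR22HG, SNHG16 224603_at, SNHG19 and SNHG1 have groups that do not overlap, while GAS5 224841_x_at and SNHG16 224601_at do overlap.

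ZFAS1, DANCR and EPB41L4A-AS1 gave small differences. ZFAS1, the host of the SNORD12 family, read 10.68, 10.79 and 10.74 against 10.55, 10.54 and 10.77 on its brightest set, 226227_x_at, a difference of -0.11 ± 0.12 (SE) with an adjusted p of 0.870. DANCR, known for restraining the differentiation of epidermal progenitors, read 8.67, 8.59 and 8.83 against 8.95, 8.84 and 8.84. Its treated arrays were all higher than the controls by small steps, with a difference of 0.18 ± 0.12 (SE) and an adjusted p of 0.737. EPB41L4A-AS1, which carries SNORA13, read 7.67, 7.77 and 7.80 against 7.59, 7.75 and 8.20 on 225698_at. Here negative pressure replicate 3 alone stood above the controls. The difference of 0.10 ± 0.16 (SE) had an adjusted p of 0.933 and turned to -0.08 without that array.

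Over the 57 snoRNA host probe sets the median difference was 0.01, and 0 passed the test. At an unadjusted p under 0.05 there were 10 (17.5%, against 9.86% of all probe sets), 4 higher and 6 lower, and 11 (19.3%, against 15%) had groups that did not overlap. Many of these sets are bright. Among the 39 with a mean above the median of all probe sets, 20.5% had an unadjusted p under 0.05, where all probe sets of that kind gave 15.1%, and 20.5% did not overlap, where all gave 20.3%. Beyond those described, the 10 held SNHG18 (0.37, adjusted p 0.352), SNHG3 215011_at (0.32, 0.402), SNHG17 225857_s_at (-0.31, 0.456) and a dim ZFAS1 set, 229899_s_at (-0.40, 0.360). None of these 4 passed with the block either. The 9 sets that name both SNHG4 and MATR3, a nuclear matrix protein gene, cannot be assigned to either gene, and none passed.

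Probe sets of the same host often differed in sign. Of the 19 hosts with more than 1 set above the median mean, all such sets lay on the same side of 0 in 8. The same share over all genes was not counted. Members above the median mean had a median absolute difference of 0.144, against 0.137 for all probe sets above it. The sign of a difference so near 0 is uncertain. The 4 ZFAS1 sets all lay below 0, between -0.40 and -0.11. The 3 SNHG17 sets lay between -0.31 and 0.06, and the 3 SNHG12 sets between -0.05 and 0.09. The probe sequences were not used here, so the part of each transcript that a set reads is not given.

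**Figure D3:**
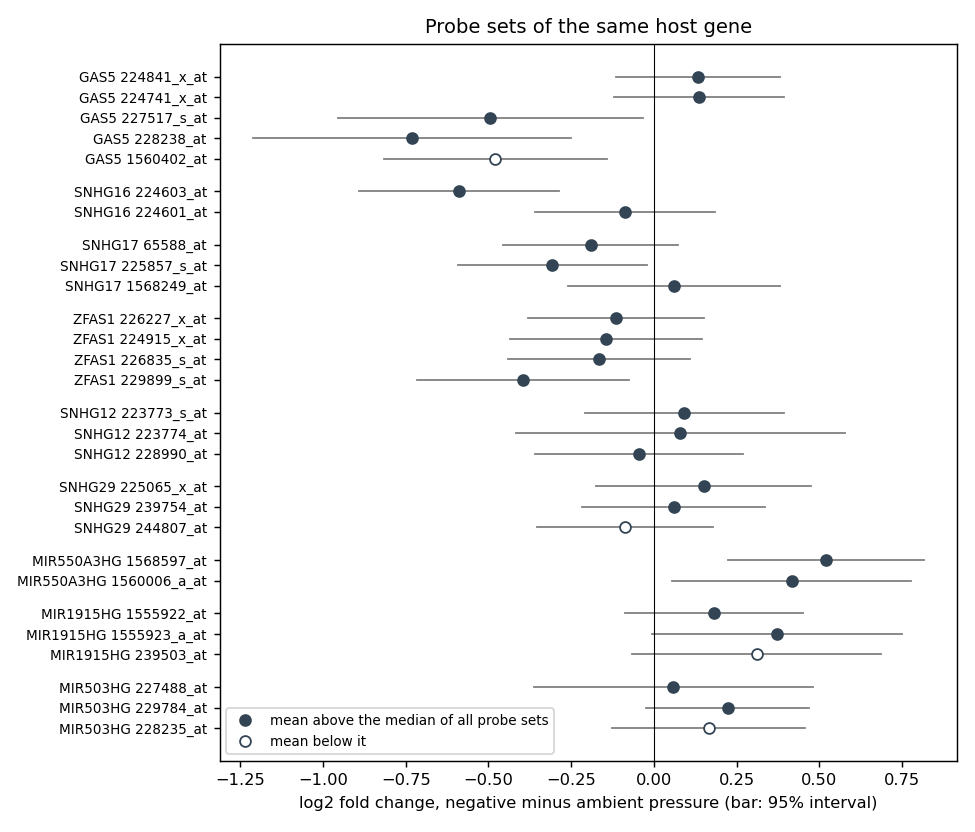
The horizontal axis is the log2 fold change, negative minus ambient pressure, with its 95% interval for each probe set of 9 host genes, ordered within a gene by mean signal, with open symbols for sets below the median mean. GAS5 spans -0.73 to 0.14 and SNHG16 spans -0.59 to -0.09 among sets of the same gene.

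A probe set that the platform names for snoRNAs of SNHG5, and not for SNHG5, passed the test. Of 129 probe sets that name a snoRNA or small Cajal body RNA but no member, 1 passed (0.775%, against 0.48% of all probe sets). With the block 5 of the 129 passed, where 2.27% of all probe sets did. An unadjusted p under 0.05 was found for 14 of the 129, where 9.86% of all probe sets had one. The one that passed without the block was 244669_at, which names SNORD50A and SNORD50B, both inside SNHG5, and it was singled out after its values were seen. This set is dim, with a mean of 3.83, just below the median probe set mean of 3.84. It read 4.44, 4.21 and 4.23 in the ambient arrays and 3.30, 3.61 and 3.18 in the treated arrays, so every treated array was lower. The difference was -0.93, with an adjusted p of 0.0341, or 0.0105 with the block. SNHG5 itself, on 225155_at, read 9.96, 9.93 and 9.72 against 9.74, 9.83 and 9.63, a difference of -0.14 ± 0.12 (SE) with an adjusted p of 0.843. The log2 ratio of the first to the second differed by -0.80, with an exact permutation p of 0.1, the smallest possible here. Set 244669_at was chosen because it passed, so this ratio describes the same values and is no separate evidence. Whether this set reads mature snoRNAs, host introns or another transcript of the locus was not tested.

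The machinery around the snoRNA hosts was read from lists of genes with 1 probe set each, leaving out sets that name several genes, among 19775 genes of which 0.92% passed (0.607% higher and 0.314% lower). Of 18 measured genes for the snoRNA-protein core and its assembly, 0 passed, 5 lay above 0, and the median was -0.16, against 0.01 for all genes. Of 14 measured protein-coding snoRNA hosts, 0 passed, with a median of 0.02. Of 13 genes of nonsense-mediated decay and the exon junction, 0 passed, with a median of 0.02. At an unadjusted p under 0.05 there were 3, 1 and 2 genes in these lists, where 11.7% of all genes had one. With the block 1 gene of each list was called, lower in each case, where 4.94% of all genes were called (2.87% higher and 2.06% lower). They were NOP58, a box C/D snoRNP core protein (-0.51, adjusted p 0.324, or 0.0231 with the block), WDR43, a ribosome assembly factor (-0.85, 0.213, or 0.0021) and MAGOHB, an exon junction core protein (-0.54, 0.162, or 0.0181). Many snoRNA hosts are named together with their snoRNAs and so were read from a dim set or not at all. EIF4A2 is a case, singled out after its values were seen: its bright set 200912_s_at, which also names snoRNAs, differed by 0.53 (adjusted p 0.176, or 0.0443 with the block).

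Among the microRNA hosts, 1 of 84 probe sets passed, the MIR22HG set, and the median difference was 0.02. In all, 5 sets (5.95%, against 9.86% of all probe sets) had an unadjusted p under 0.05, and 9 sets (10.7%, against 15%) did not overlap between the groups, so both shares lay below those of the array. Of the 36 hosts whose strand the sequence table gives, 35 hold at least 1 microRNA gene on that strand, and MIR17HG holds the most, 6.

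MIR550A3HG, MIR570HG and MIR4453HG had the highest treated values relative to control, and they are named for the microRNAs below, of which the seeds are in capitals. In RefSeq the MIR570 gene lies within the interval of MIR570HG, but the sequence table does not give the strand of MIR570HG. Whether both lie on the same strand was therefore not checked.
hsa-miR-550a-3p: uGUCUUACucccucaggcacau
hsa-miR-570-3p: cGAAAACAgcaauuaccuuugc
hsa-miR-4453: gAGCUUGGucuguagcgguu
MIR550A3HG read 6.0, 5.89 and 6.14 at ambient and 6.62, 6.34 and 6.63 under negative pressure on 1568597_at. All treated arrays were higher, with a difference of 0.52 ± 0.13 (SE) and an adjusted p of 0.162, or 0.0475 with the block. Its second set, 1560006_a_at, differed by 0.42 (0.412, or 0.133 with the block).

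MIR570HG read 5.03, 5.29 and 5.28 at ambient and 5.87, 5.67 and 5.80 under negative pressure on 226693_at. The groups did not overlap, and the difference of 0.58 ± 0.12 (SE) had an adjusted p of 0.0981, or 0.0469 with the block. This set also names the pseudogenes SDHAP1 and SDHAP2, so its signal cannot be given to MIR570HG alone. MIR4453HG read 3.56, 3.59 and 3.88 against 3.91, 4.05 and 4.74 on 231954_at. Its treated arrays were higher, replicate 3 most of all, with a difference of 0.55 ± 0.21 (SE) and an adjusted p of 0.403, or 0.0646 with the block. Without negative pressure replicate 3 the difference was 0.30.

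MIR31HG, MIR17HG, MIR100HG and MIR210HG did not pass. MIR31HG, host of miR-31, read 4.91, 4.93 and 4.86 against 5.24, 5.03 and 4.98, all treated arrays higher, with a difference of 0.18 ± 0.12 (SE) and an adjusted p of 0.730. MIR17HG, host of the miR-17 to miR-92a cluster, read 4.94, 4.78 and 4.25 against 5.08, 4.85 and 4.59 on 232291_at, with overlap, and differed by 0.18 ± 0.20 (SE) with an adjusted p of 0.875. It turned to -0.02 without ambient replicate 3, the lowest control. MIR100HG, host of miR-100, let-7a-2 and miR-125b-1, read 6.90, 6.95 and 6.09 against 7.16, 7.09 and 6.76 on 225381_at. Replicate 3 was lowest in both groups, and the difference of 0.36 ± 0.23 (SE) had an adjusted p of 0.714 and was 0.082 without ambient replicate 3.

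MIR210HG, host of the hypoxia-induced miR-210, read 3.61, 3.52 and 3.43 at ambient and 3.13, 3.34 and 3.64 under negative pressure on 230710_at. The values overlapped and lay below the median probe set mean of 3.84, and the difference of -0.15 ± 0.15 (SE) had an adjusted p of 0.857. Of 17 measured genes of a hypoxia target list, 4 had an unadjusted p under 0.05, where 11.7% of genes with 1 probe set each had one. In that list 1 gene passed, where 0.92% of all genes did. It was PDK1, the kinase that turns off pyruvate dehydrogenase, and it fell by 1.49 on the log2 scale (adjusted p 0.0278). With the block NDRG1 (0.68, adjusted p 0.151, or 0.0234) and P4HA1 (0.66, 0.149, or 0.00639) were called higher. PDK1 was called lower with the block too, so the list held calls in both directions. Among all genes 4.94% were called with the block (2.87% higher and 2.06% lower). The list's median difference was 0.06.

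Hosts of microRNAs with the miR-15/16 seed, or a seed close to it, are set beside each other. The reason is that DLEU2, a host that the naming rule does not take in, fell strongly. Of the 7 mature microRNAs with this seed in the table, 5 are shown with the seed in capitals, followed by miR-503, whose seed is close to it.
hsa-miR-15a-5p: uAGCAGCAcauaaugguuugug
hsa-miR-16-5p: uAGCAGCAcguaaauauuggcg
hsa-miR-195-5p: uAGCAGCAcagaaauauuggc
hsa-miR-497-5p: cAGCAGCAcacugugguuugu
hsa-miR-424-5p: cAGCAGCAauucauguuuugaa
hsa-miR-503-5p: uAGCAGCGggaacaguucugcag
DLEU2, host of miR-15a and miR-16, read 6.72, 6.55 and 6.31 against 5.07, 4.73 and 4.86 on 216870_x_at. The groups lay far apart, with a difference of -1.64 and an adjusted p of 0.0109. Set 215629_s_at, which also names DLEU2L and MIR15A, differed by -1.90 (adjusted p 0.0209), and the other 8 DLEU2 sets did not pass. MIR497HG, host of miR-195 and miR-497, differed by -0.26 (adjusted p 0.763), and the 3 sets of MIR503HG, which the platform pairs with miR-424 and miR-503, by 0.06, 0.17 and 0.22. In RefSeq the MIR503 gene lies inside MIR503HG and the MIR424 gene does not. SMC4, whose introns carry miR-15b and miR-16-2, differed by 0.20 (adjusted p 0.801 with 1 probe set a gene). None of these hosts passed, and the differences between the hosts were not tested. MIR205HG, host of the epithelial miR-205, read 8.15, 8.25 and 7.93 against 9.38, 9.12 and 10.03 and rose by 1.40 (adjusted p 0.0360).

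**Figure D4:**
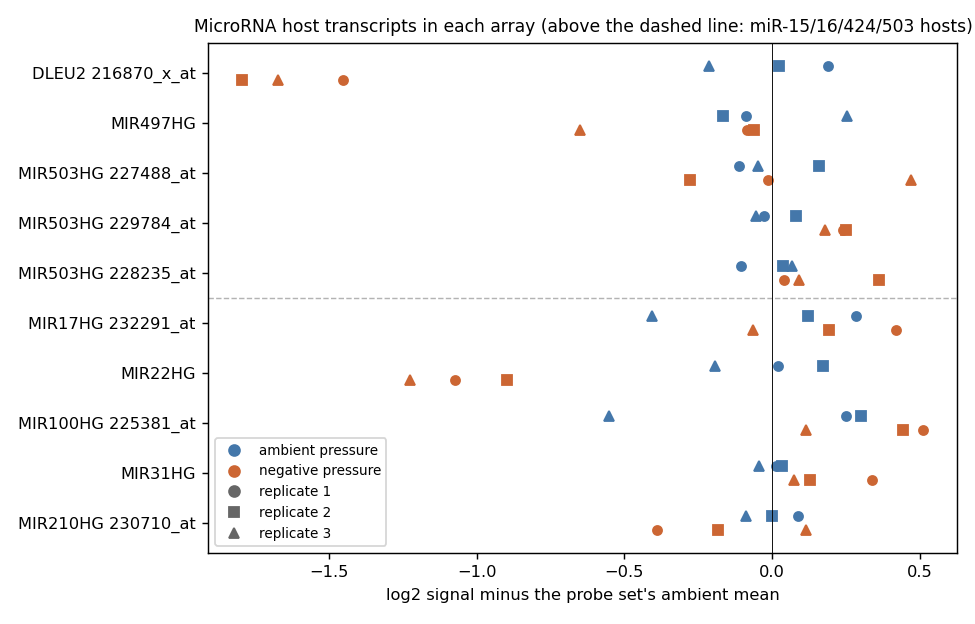
The horizontal axis is the log2 signal of microRNA host probe sets in each of the 6 arrays minus the set's ambient mean, with pressure as colour and replicate as symbol. The treated arrays of DLEU2 and MIR22HG lie wholly below their controls, while those of MIR17HG and MIR100HG overlap with theirs.

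The proteins that make microRNAs were read from a list of 18 measured genes, of which 0 passed. The median was -0.08, and 3 had an unadjusted p under 0.05, where 11.7% of genes with 1 probe set each had one. DDX5, a helicase of the Microprocessor, was called lower with the block (-0.59, adjusted p 0.305, or 0.0139 with the block). It was the only gene of the list called so, where 4.94% of all genes were called with the block. DICER1, named after its values were seen, differed by -0.72 (0.366, or 0.0960 with the block). Of 26 measured microRNA hosts with other names, DLEU2 passed, lower, and the other 25 did not, with a median of 0.04. Among all genes 0.92% passed.

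The treated arrays spread widely on MALAT1 and NEAT1. None of the 12 MALAT1 or 9 NEAT1 probe sets passed, none had an unadjusted p under 0.05, and their medians were 0.01 and 0.15. MALAT1 on its brightest set, 1558678_s_at, read 7.64, 7.81 and 7.88 in the ambient arrays and 6.12, 7.47 and 9.34 in the treated arrays. The treated arrays thus lay on both sides of closely grouped controls, with a difference of -0.14 ± 0.63 (SE) and an adjusted p of 0.978. Set 223940_x_at, singled out after its values were seen, read 4.82, 4.96 and 5.21 against 3.44, 4.02 and 7.63.

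In negative pressure replicate 3, 10 of 12 MALAT1 sets lay above all ambient arrays, and in negative pressure replicate 1, 10 of 12 lay below them, as did 7 in replicate 2. For NEAT1, 7 of 9 sets lay above all ambient arrays in replicate 3, and 3 and 1 lay below in replicates 1 and 2. Relative to each set's ambient mean, the median MALAT1 value was -0.69, -0.23 and 1.17 in negative pressure replicates 1, 2 and 3. For NEAT1 it was 0.02, 0.11 and 0.67. The median SD among the treated arrays was 0.876 for MALAT1 and 0.488 for NEAT1, against 0.157 for all probe sets, while among the ambient arrays it was 0.257, 0.182 and 0.152.

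Negative pressure replicate 3 exceeded the mean of the other 2 treated arrays by a median of 1.52 over the MALAT1 sets and by more than 1 in 8 of 12, against 0.645% of all probe sets. On 223940_x_at the excess was 3.90, and 0 of the 54613 probe sets exceeded it by more. For NEAT1 the median excess was 0.76. None of the snoRNA or microRNA host sets had an excess over 1. In ambient replicate 3, whose array also stood apart on the first component, the median excess was 0.18 for MALAT1 and -0.31 for NEAT1.

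Without both replicate 3 arrays, MALAT1 sets 223940_x_at (-1.15, adjusted p 0.0395) and 224568_x_at (-0.92, 0.0196) passed as lower. In that fit 1.1% of all probe sets passed, and 0.588% were lower. Their differences over all arrays were 0.04 and 0.20. Without negative pressure replicate 3 alone they were -1.26 (adjusted p 0.0424) and -0.81 (0.0635). The sets of 1 transcript are not independent, so their number is no replication.

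NEAT1 on its brightest set, 224565_at, read 8.34, 8.27 and 7.99 at ambient and 8.36, 8.44 and 8.57 under negative pressure. The groups barely separated, with a difference of 0.26 ± 0.13 (SE) and an adjusted p of 0.606. Of 16 measured genes for paraspeckle and nuclear speckle proteins, 0 passed, and the median was 0.00. An unadjusted p under 0.05 was found for 3, where 11.7% of genes with 1 probe set each had one. PSPC1, a paraspeckle core protein, was called lower with the block (-0.92, adjusted p 0.0770, or 0.00507 with the block). It was the only gene of the list called so, where 4.94% of all genes were called with the block.

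The level of intact RNA was read from the 3' minus 5' signal of control sets. For ACTB it was 0.54 ± 0.25 at ambient and 0.69 ± 0.24 under negative pressure (SD, n = 3, exact permutation p 0.5), and for GAPDH 0.18 ± 0.03 and 0.10 ± 0.06 (0.2). For ACTB it was lowest in the replicate 3 array of each group, at 0.27 and 0.42. Its part in the MALAT1 values was not tested.

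**Figure D5:**
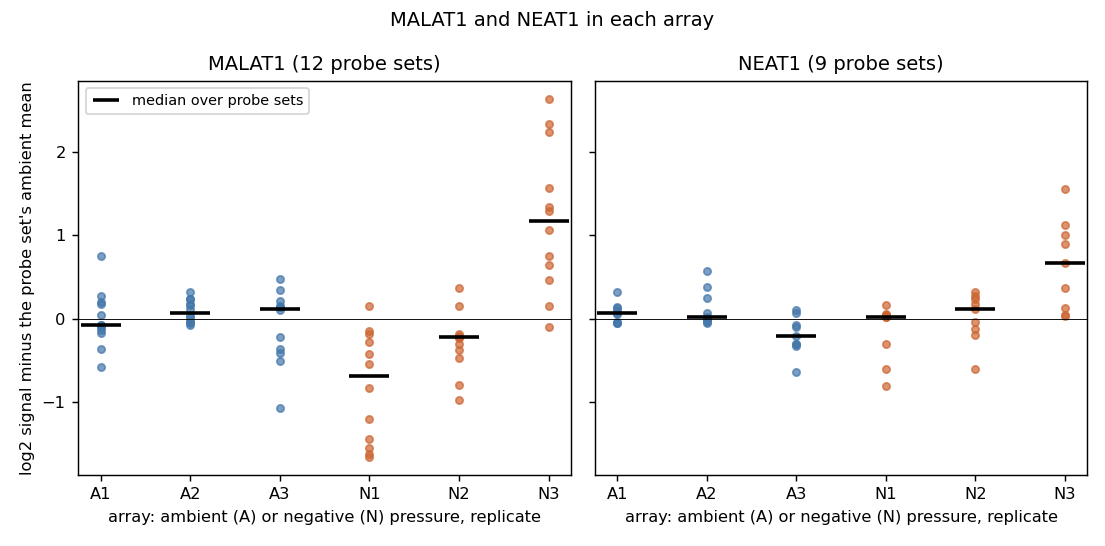
Each point is the log2 signal of 1 MALAT1 or NEAT1 probe set in 1 array minus that set's ambient mean, with bars for the median over the sets in each array. The MALAT1 medians in negative pressure arrays run from -0.69 in replicate 1 to 1.17 in replicate 3, while the ambient medians stay between -0.08 and 0.12.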

How the data were processed

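RNA of 3 HaCaT cultures per pressure was measured on Affymetrix arrays. The deposited log2 values came from RMA (background correction, normalization between arrays and 1 summary per probe set), run in Affymetrix Expression Console 1.2 according to the processing notes of the submitters. Their range was 0.890 to 13.4 and the array medians were 3.81 to 3.89. The sources used here give no scan batch. Genes were named from the platform annotation, and all gene IDs of 159 of the 162 members were found in the RefSeq table, which held 76 of the 78 hosts and promoters of 61.

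All 54613 probe sets without Affymetrix controls were fitted in R 4.3.3 with limma 3.58.1 (lmFit, eBayes), with no filter on low values, negative against ambient pressure, and Benjamini-Hochberg adjustment over all of them at 0.05. The fit was tested on simulated data. The p-values set each difference against the spread between these cultures, drawn by limma towards that of all probe sets. Having 3 arrays per group limits their precision. The gene lists and cell type markers were fitted and adjusted the same way over 19775 genes with 1 probe set each. Groups come from sample titles. Members and lists were chosen with earlier results of these data known.

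Given in full were members past the threshold with or without the block, the 3 highest and 3 lowest differences among members above the median mean, and the brightest set of 12 genes (GAS5, ZFAS1, DANCR, NEAT1, MALAT1, EPB41L4A-AS1, SNHG1, MIR22HG, MIR210HG, MIR17HG, MIR31HG and MIR100HG). Other sets named were chosen after their values were seen.

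The replicate numbers were taken to pair the arrays, because deviations from the group means correlated at 0.22, 0.23 and 0.47 between arrays numbered 1, 2 and 3, each above 0.1. The unlike pair of ambient array 1 and treated array 2 gave 0.36, and an offset of the replicate 3 arrays alone would raise all of these. Alternatives were the block, other normalizations, a filter, 1 probe set a gene, other variance models and leaving out each array, and, added after seeing the data, both replicate 3 arrays left out or as a batch term.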

Additional observations from a re-analysis of the deposited data

How the results depend on the processing

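The number of members past the threshold stayed at 1, the MIR22HG set, when quantile normalization was repeated, with median centring, cyclic loess, trend and robust variance, and with probe sets of low mean left out. It was 6 with the replicate block that pairs the arrays and 6 with array weights, 2 at an adjusted p under 0.1, 0 with 1 probe set a gene (which leaves out sets naming several genes, that of MIR22HG among them), and 0 to 2 without 1 array. Over all probe sets the count went from 262 to 1242 with the block, 1516 with array weights, 625 at an adjusted p under 0.1 and 1 to 235 without 1 array. Chosen after seeing the data, leaving out both replicate 3 arrays gave 3 members and 600 probe sets, and replicate 3 as a batch term gave 8 and 1867. The share of calls that were higher was 57.6%, 48.5% with cyclic loess, 46.5% without both replicate 3 arrays and 41.8% without ambient replicate 3.

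The members' median difference of 0.03 was -0.022 with 1 probe set a gene and -0.028 to 0.064 without 1 array. Among the 18 sets given in full, signs turned in 5 cases, none past the threshold. Beyond these, MALAT1 sets 223940_x_at and 224568_x_at turned to -1.15 and -0.92, both past the threshold, without both replicate 3 arrays. EPB41L4A-AS1 was -0.0087 with array weights, -0.080 to 0.22 without 1 array and -0.053 without both replicate 3 arrays. MIR17HG was -0.020 to 0.33 and the brightest MALAT1 set -0.98 to 0.63 without 1 array. The cause was not tested. Dim sets, 77 of the 162 members, lie below the median mean, where small changes are compressed.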

Other observations

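Taking the brightest probe set of each of the 78 hosts, 41 lay above 0, where 28111 of all 54613 probe sets did. In the limma fit 9 had an unadjusted p under 0.05, where 11.7% of genes with 1 probe set each had one. Among 4 measured endothelial markers, CDH5 passed as lower (-0.80, adjusted p 0.0325 over genes with 1 probe set each), where 0.314% of all such genes did. Its mean was 4.81 at ambient and 4.01 under negative pressure. None of the keratinocyte, fibroblast, melanocyte and leukocyte markers passed in the fit without the block. Of the 5 measured keratinocyte markers 2 had an unadjusted p under 0.05, where 11.7% of genes had one. With the block 1 of them was called higher, where 2.87% of genes were.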
